A study of Bienertia sinuspersici with 9 samples.

Results

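Of 11709 unigenes (assembled transcripts) in the normalized expression table of Bienertia sinuspersici leaves, 28 formed a set that peaked in intermediate leaves. A unigene entered the set when its mean level in intermediate leaves was at least 1.3 times that in young leaves and more than 1.3 times that in mature leaves, when every intermediate library lay above every young and every mature library, and when the mean of the 9 libraries was at least 10. The set was thus chosen by these same levels, and the height of the peak is given as a description without a test. RNA was sequenced from whole leaf tissue of wild-type plants at 3 developmental stages (young, intermediate and mature), with 3 biological replicates per stage. All plants were raised on the same salt-containing medium and then in one greenhouse regime, watered with dilute salt. Of mature leaves only the upper portion was used, so stage and leaf part cannot be told apart wherever mature leaves are compared. The labels call the replicates biological but do not say whether they came from separate plants. A p-value here reflects the spread among the 3 libraries within a stage, pooled over the stages fitted together.

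Bienertia runs single-cell C4 photosynthesis, in which a single chlorenchyma cell concentrates CO2 by dividing the work between peripheral and central chloroplasts. In young leaves the chloroplasts are of 1 kind, and the peripheral and central types and the large vacuole that keeps them apart form as the leaf matures. The intermediate stage lies within this transition.

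Levels are TPMTMM, that is, TPM (a transcript's share of its library, already divided by transcript length) rounded, raised by 1 and multiplied by a factor for each library. Library factors averaged 0.858 ± 0.0171 for young, 0.932 ± 0.0587 for intermediate and 1.26 ± 0.0421 for mature leaves (SD, n = 3 each). Markers of the leaf were listed with earlier results of these data known, so their course over the stages is a description. For 5 genes of photosynthetic cells (PEPC1, PPDK, NAD-ME2, PSAD2 and PORC) the summed level was 4510 to 4560 TPMTMM in the young libraries. It was 7222 to 11467 in the intermediate ones and 22635 to 23206 in the mature ones, where PEPC1 alone averaged 9699. For 5 genes of dividing cells (HTR12, TPX2, BARD1, CTF18 and CSLD5) the sums were 80.8 to 98.9, 60.4 to 64.9 and 34.5 to 40.6 TPMTMM at the same stages. All 5 were called lower in mature than in young leaves, beside 23.9% of all unigenes. Neither sum was highest in intermediate leaves, and none of these genes belonged to the set. In bulk tissue, fewer cells of a type and less RNA per cell cannot be told apart.

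The peak at the intermediate stage was an uncommon pattern under these limits. Of the 11709 unigenes, 8063 had a mean of at least 10, and 1338 of those were at least 1.3 times higher in intermediate than in young leaves. Only 56 of the 1338 were also more than 1.3 times higher in intermediate than in mature leaves, and in 28 of the 56 all libraries were apart. The same limits gave 363 unigenes highest in young leaves, 1432 highest in mature leaves and 10 lowest in intermediate leaves. Another 100 unigenes had every intermediate library above all others but fell short of a fold limit.

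**Figure D1:**
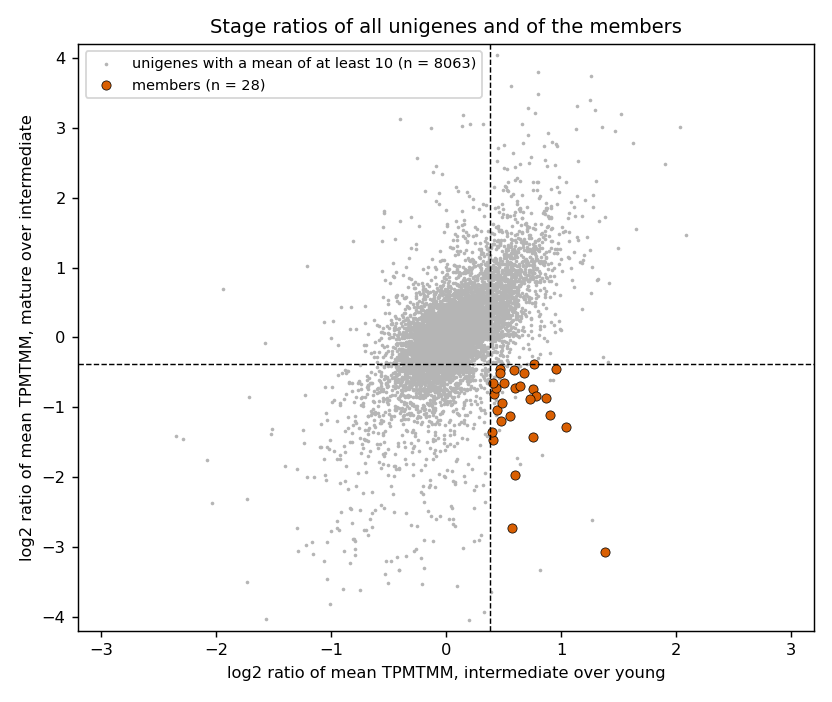
Each point is 1 unigene with a mean of at least 10 (n = 8063), placed by the log2 ratio of mean TPMTMM in intermediate over young leaves (x axis) and in mature over intermediate leaves (y axis). Dashed lines mark the fold limit of 1.3, the 28 members (large points) occupy the lower right corner, and 17 unigenes lie outside the plotted range.

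Members lay slightly above the 8063 unigenes in median level, and their peak was modest in height. Their mean over the 9 libraries ran between 10.3 and 823 TPMTMM, with a median of 34.8, beside 26.6 in the 8063 unigenes. Under 50 lay 17 members, beside 5964 of the 8063 unigenes, and at 100 or more 4 members, beside 974. The ratio of intermediate over young leaves had a median of 1.51 in the set (1.31 to 2.60), beside 1.02 in the 8063 unigenes. For intermediate over mature leaves the median was 1.81 in the set (1.3 to 8.42), beside 0.984. The step down to mature leaves was the larger of the 2 steps in 22 of the 28 members, beside 3846 of the 8063 unigenes. That is the same as a mature mean below the young mean. Ratios of at least 2 were reached by 11 members over mature leaves and by 2 over young leaves, beside 405 and 60 of the 8063 unigenes.

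ERF023 was the only member with a name in the sources used here. The name is that of its best match in Arabidopsis, where ERF023 is a transcription factor of the AP2/ERF family in the DREB subfamily, a group known for binding drought- and cold-responsive promoter elements. In libraries 1 to 3 of each stage, ERF023 had 23.1, 25.2 and 19.3 TPMTMM when leaves were young, 32.0, 35.5 and 35.0 at the intermediate stage and 7.40, 12.3 and 6.53 at maturity. The 3 stages did not overlap, and the intermediate libraries lay close together (34.1 ± 1.88, SD, n = 3). The intermediate mean was 1.51 times the young mean and 3.90 times the mature mean. The other 27 members carry only assembly identifiers here, in which c, g and i number the component, gene and isoform of the assembly, so nothing can be said of their function. Names were at hand for 208 unigenes of the table, of which 144 had a mean of at least 10. Of those 144, intermediate leaves had the highest stage mean in 23, and among all 8063 unigenes in 1248 (15.5%).

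BS649_c0_g1_i17 had the largest ratios of the set in TPMTMM over either neighboring stage. Its libraries had 26.6, 25.2 and 17.5 TPMTMM at the young stage, 74.6, 66.4 and 39.0 at the intermediate stage and 4.93, 8.62 and 7.83 at the mature stage. The intermediate mean was thus 2.60 times the young and 8.42 times the mature mean, but intermediate library 3 lay closer to the young libraries than to the other intermediate ones. Over mature leaves its rank rests on the 1 added to each TPM: in TPM times library factor, BS4772_c0_g1_i51 (18.7 in intermediate and 1.70 in mature leaves) had a slightly larger ratio than BS649_c0_g1_i17 (59.0 and 5.59). BS2829_c1_g1_i1 gave the cleanest separation: young libraries had 17.1, 17.7 and 15.8 TPMTMM, intermediate ones 36.4, 35.5 and 32.0, and mature ones 17.3, 12.3 and 13.1. Its lowest intermediate library was 1.81 times its highest other library, the widest such gap in the set, and its young and mature libraries overlapped. BS630_c0_g1_i5, which followed in peak height, had 14.6, 14.3 and 13.1 TPMTMM in the young libraries, 26.7, 21.8 and 30.0 in the intermediate ones and 14.8, 11.1 and 10.4 in the mature ones. Another transcript of the same assembled gene, BS630_c0_g1_i2, was also a member, with 11.1, 10.9 and 10.5 TPMTMM in the young libraries, 18.7, 18.2 and 14.0 in the intermediate ones and 7.40, 12.3 and 11.7 in the mature ones. Transcripts of a single gene can share reads, so these 2 members are not separate observations.

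**Figure D2:**
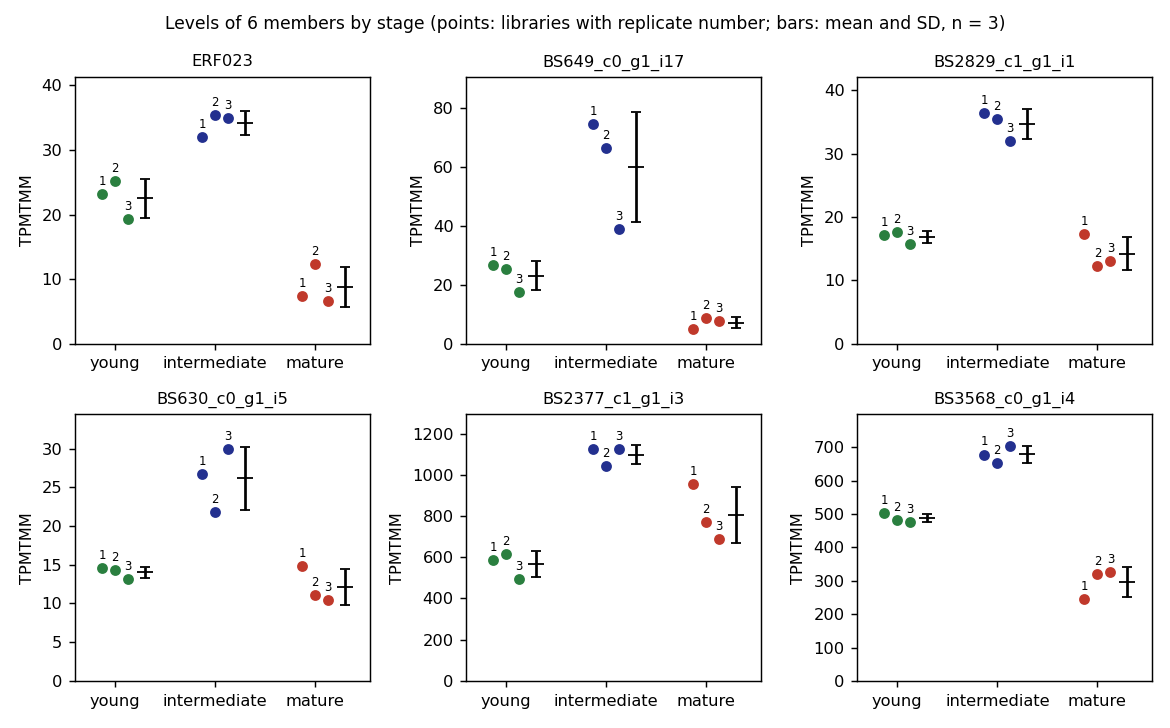
TPMTMM (y axes, from 0) of ERF023 and 5 unnamed members in the 9 libraries, by stage (x axes). Points are single libraries with their replicate number, and bars show the mean and SD (n = 3). In all 6 panels the 3 intermediate points lie above every other point, while young and mature leaves lie at like levels in BS2829_c1_g1_i1 and BS630_c0_g1_i5 and apart in ERF023, BS649_c0_g1_i17 and BS3568_c0_g1_i4.

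The most abundant members differed in what surrounded the peak. BS2377_c1_g1_i3 had 588, 617 and 495 TPMTMM in the young libraries, 1123, 1044 and 1124 in the intermediate ones and 954, 769 and 690.4 in the mature ones, so that all 3 stages were apart and mature leaves stayed above young leaves. BS3568_c0_g1_i4 had 501, 483 and 477 TPMTMM in the young libraries, 678, 654 and 702 in the intermediate ones and 244, 320.0 and 325 in the mature ones. There the order of the flanking stages was the opposite, with young leaves above mature leaves in every library. For BS3852_c0_g1_i2 the levels were 110.5, 109 and 91.9 TPMTMM in the young libraries, 179, 171 and 176 in the intermediate ones and 148, 92.3 and 75.7 in the mature ones. Its mature libraries spanned the whole range of its young libraries.

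At the edge of the set, BS18424_c0_g1_i2 was only 1.3 times higher in intermediate than in mature leaves (13.1 ± 1.68 against 10.03 ± 0.981 TPMTMM, SD, n = 3 each), with 7.71 ± 0.704 in young leaves. BS2486_c0_g1_i1 was 1.31 times higher in intermediate than in young leaves (76.9 ± 16.7 against 58.6 ± 2.47 TPMTMM) and had 30.2 ± 12.7 in mature leaves. Just outside lay BS5944_c1_g1_i3, short of the limit over young leaves with stage means of 23.7 (young), 30.8 (intermediate) and 19.8 TPMTMM (mature). BS8530_c0_g2_i11, with means of 34.0, 47.4 and 36.8 TPMTMM in the order of the stages, reached a ratio of 1.29 over mature leaves. The ratios on the 2 sides of the limit were nearly the same, and the border of the set is a convention.

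**Figure D3:**
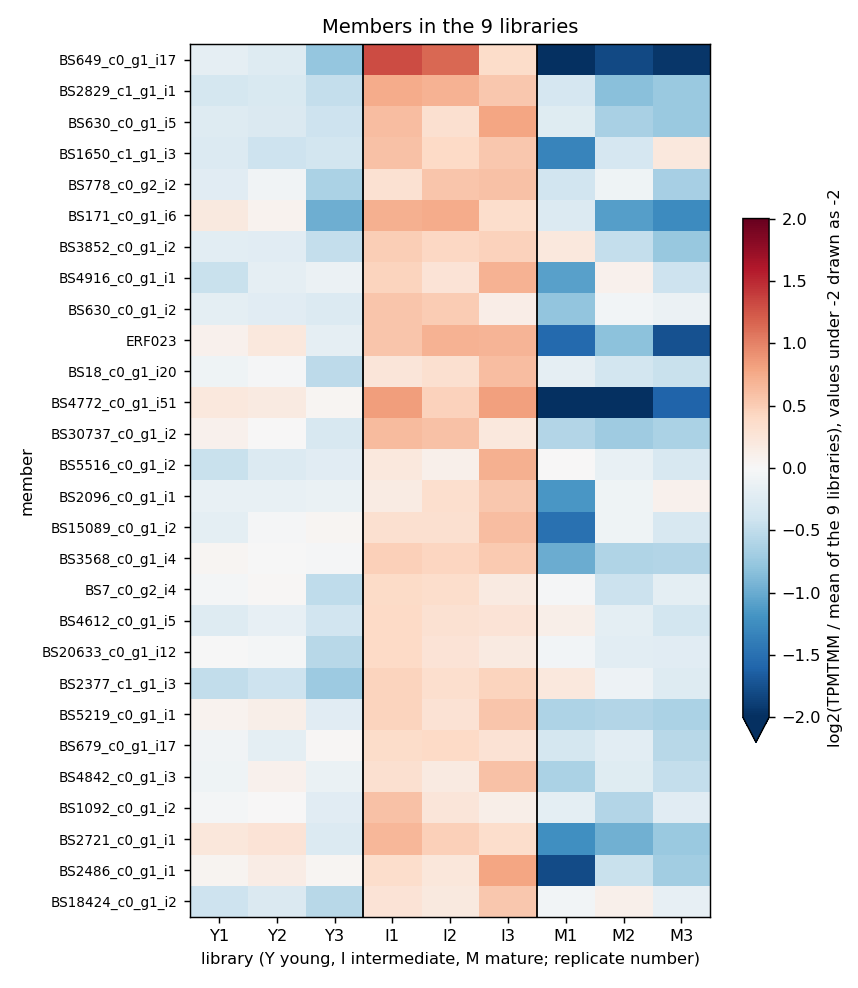
Levels of the 28 members (rows) in the 9 libraries (columns Y1 to M3), as log2 of TPMTMM over the member's mean of the 9 libraries, sorted by the ratio of the intermediate mean to the higher of the other stage means. Red is above and blue below that mean, 3 values under -2 (mature libraries of BS649_c0_g1_i17 and BS4772_c0_g1_i51) are drawn at -2, and the 3 intermediate columns are red in every row while mature columns run from pale red to deep blue.

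Young library 3 was the lowest young library in 22 of the 28 members, whereas it was the lowest in 45.4% of the 8063 unigenes. Among intermediate libraries, number 3 was the highest in 13 members (46.3% of the 8063 unigenes), number 1 in 12 (31.3%) and number 2 in 3 (22.4%), so the count of number 3 matched the background. Within a replicate number, the median ratio of intermediate over young leaves in the set was 1.45, 1.39 and 1.72 for numbers 1 to 3, and that of intermediate over mature leaves was 2.02, 1.64 and 2.09. Over the 8063 unigenes these medians lay between 0.982 and 1.04. Both fold limits were met within number 1 by 19 members, within number 2 by 15 and within number 3 by 24. Of the 8063 unigenes, 86, 139 and 173 met them in numbers 1 to 3. The rule read these same libraries, so the counts of members are a description. Membership also depended on single libraries: 15 of the 28 unigenes met the rule whichever library was left out. Without intermediate library 3 the rule chose 76 unigenes, 22 of the 28 among them, and without young library 3 it chose 36, including 21 of the 28.

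To read the pattern in libraries that the choice had not used, the rule was applied to 2 replicate numbers and the remaining number was then inspected. Without number 1 the rule chose 42 unigenes, and 33 of them (78.6%) were highest in intermediate leaves in number 1, as were 18.7% of all unigenes with the minimum mean. Without number 2 it chose 50, of which 40 (80%) were highest in intermediate leaves in number 2, beside 21.2% of all. Without number 3 it chose 45, of which 33 (73.3%) were highest in intermediate leaves in number 3, beside 20.4%. The size of the peak carried over less often: both fold limits were met in the left-out number by 20, 15 and 16 of these unigenes in turn, beside 1.11%, 1.71% and 2.16% of all. Without numbers 1, 2 and 3 in turn, 27 of the 42, 27 of the 50 and 18 of the 45 chosen unigenes belonged to the set described above. The shares therefore describe unigenes chosen from 2 replicate numbers and are not a check of that set. The 3 choices overlap, so no test was made.

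All 9 libraries were fitted in 1 limma model on log2(TPMTMM + 1) for all 11709 unigenes, and each pair of stages was read from it. Limma is a linear model that draws the spread of each unigene toward that of unigenes of like level. Calls were made at a Benjamini-Hochberg adjusted p under 0.05. Of the 28 members, 7 were called higher in intermediate than in young leaves, beside 2.99% of all unigenes. When intermediate and young libraries were fitted alone with the replicate number as a block, 27 members were called, beside 12.9% of all. The block in the fit of all 9 libraries called 7 (2.01% of all unigenes), as did the fit without it. The fit of the 2 stages without a block called 15, beside 3.19% of all. The count without the block was also moved by single libraries, as was the share of all unigenes. The count was 0 without intermediate library 1 (0.128% of all), 3 without intermediate library 3 (0.623%) and 4 without intermediate library 2 (1.49%). It was 1 without any 1 of the young libraries (0.171%, 0.0769% and 0.307% for numbers 1 to 3) and 17 without mature library 1 (5.3%). In mature against intermediate leaves, 25 members were called lower, beside 15.9% of all unigenes, and 16 without intermediate library 1. The rule used both contrasts, so nothing is read from these counts.

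The rule set no direction between mature and young leaves, and this contrast was tested. The rule did read the same libraries, however, and asking that intermediate libraries lie apart favors members with a small spread. Adjusted p-values of single members can therefore be too small. The mature mean lay below the young mean in 22 of the 28 members (78.6%), beside 47.7% of the 8063 unigenes, which restates the larger step down given above. The median log2 fold change of mature over young leaves was -0.24 in the set, beside 0.02 in the 8063. In limma, 9 members fell (23.9% of all unigenes were called lower) and 1 rose (24.2% of all were called higher). Another 18 members did not pass the test. The downward calls, 9 of 28, lay near the share of the whole table and are no result about the set, and the upward calls, 1 of 28, lay below it. Since the rule caps the young and the mature level below the intermediate one, these shares are set side by side as a description. In TPM without scaling between libraries, which shifts the median unigene by -0.57, 24 members were called lower and 0 higher, beside 56.9% and 11.1% of all unigenes. The libraries of mature leaves all lay below those of young leaves in 10 members (29.3% of all unigenes), all lay above in 2 (28% of all) and overlapped with them in 16.

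The largest fall was that of BS4772_c0_g1_i51, which had 2.47, 2.46 and 3.92 TPMTMM in mature leaves, against 13.7, 13.5 and 12.3 in young leaves (log2 fold change -1.86, standard error 0.17, limma adjusted p = 4.07e-05). In intermediate leaves it had 21.3, 16.4 and 21.0 TPMTMM, so young leaves held most of the peak level and mature leaves little of it. Its mature libraries had 0.86, 1.09 and 2.06 TPM, near the 1 added, so the size of the fall depends on added constants. The log2 fold change was -1.19 with a pseudocount of 5, -2.15 with 0.1 and -2.74 in TPM without scaling between libraries. All 3 stayed past the threshold. BS649_c0_g1_i17 had a log2 fold change of -1.58 (standard error 0.28, limma adjusted p = 0.00173), with 7.13 ± 1.94 TPMTMM in mature leaves and 23.1 ± 4.89 in young leaves (SD, n = 3 each). ERF023 fell too (log2 fold change -1.31, standard error 0.20, limma adjusted p = 0.000826), with 8.75 ± 3.12 TPMTMM in mature leaves and 22.5 ± 3.03 in young leaves. Its call held without any 1 library and under every other setting tried. BS2486_c0_g1_i1 (-1.03, standard error 0.30, limma adjusted p = 0.0203) lost its call without young library 1 (limma adjusted p = 0.0506) or young library 2 (0.0589). The abundant BS3568_c0_g1_i4 fell as well (-0.73, standard error 0.13, limma adjusted p = 0.00151). The other 4 falls were between -1.04 and -0.40.

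BS2377_c1_g1_i3, the most abundant member, was the only one to rise, with 804 ± 135 TPMTMM in mature leaves and 567 ± 64.1 in young leaves (log2 fold change 0.50, standard error 0.15, limma adjusted p = 0.0234). This call was lost without young library 1, young library 3 or mature library 1 (limma adjusted p = 0.0529, 0.0751 and 0.0571), and in TPM without scaling between libraries the log2 fold change was -0.05. The member stood above the median unigene on both scales. BS18424_c0_g1_i2 was next (0.34, standard error 0.13, limma adjusted p = 0.0516) and did not pass the test. For BS2829_c1_g1_i1, BS630_c0_g1_i5, BS630_c0_g1_i2 and BS3852_c0_g1_i2 the log2 fold changes were -0.24, -0.21, -0.08 and -0.03, none past the threshold.

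**Figure D4:**
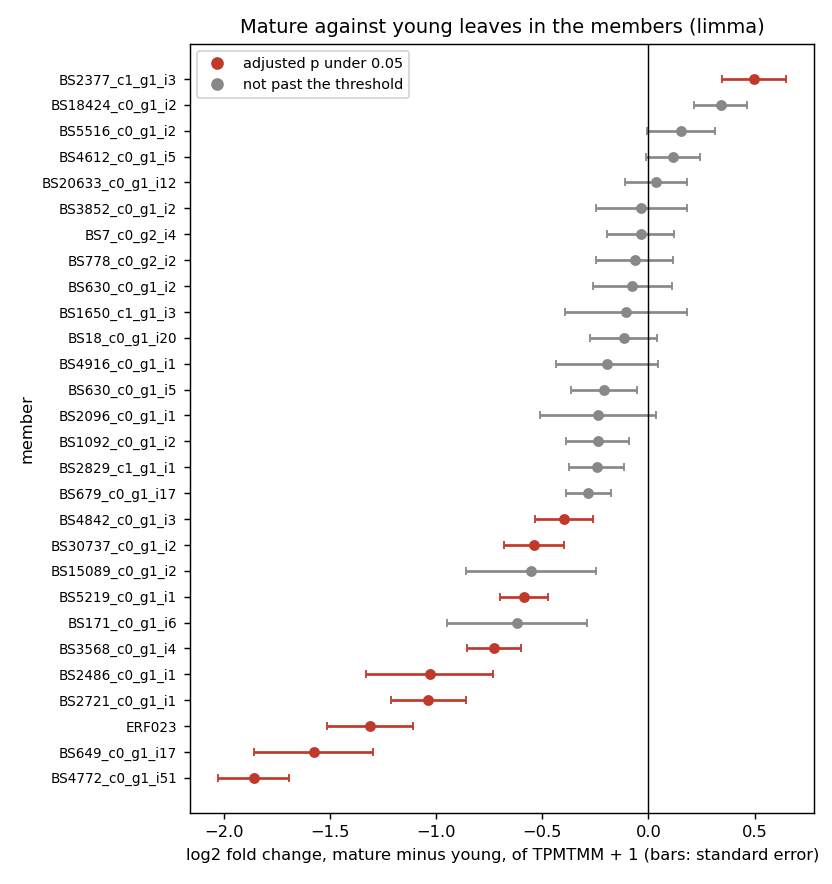
Log2 fold change of mature over young leaves on TPMTMM + 1 (x axis, points with standard error from limma) for the 28 members (y axis). Red points passed an adjusted p under 0.05, which 9 members did on the side of a fall and BS2377_c1_g1_i3 on the side of a rise.

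The rule picked transcripts, and other transcripts of the same assembled gene could be read beside them in the TPM table, here multiplied by the same library factors. The 28 members came from 27 assembled genes, of which 12 had a single transcript and 15 had more, up to 6. The 16 members of these 15 genes stood beside 28 other transcripts, of which 12 were highest in intermediate leaves, 8 in young and 8 in mature leaves. Of the 13 with a stage mean of at least 10, however, 5 were highest in intermediate, 2 in young and 6 in mature leaves. Fold and library conditions were met by 4 of the 28. Summed over its transcripts, the assembled gene was highest in intermediate leaves in 14 of the 15 genes and met the fold and library conditions in 10. These totals include the member, which was chosen for the same peak and made up as much as 96.7% of the total in intermediate leaves (BS20633_c0_g1_i12), so they are in large part fixed by the rule. RSEM splits reads among similar transcripts, so values of transcripts of a gene are not independent.

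In BS3568_c0_g1 the transcripts moved together. The member i4 averaged 486 ± 12.6 at the young, 677 ± 24.4 at the intermediate and 295 ± 45.2 at the mature stage (TPM times library factor, SD, n = 3), and the other transcript, i5, had 319.5 ± 11.3, 451 ± 25.1 and 200.5 ± 36.7 in that order of stages. The member made up 60.3%, 60.01% and 59.6% of the gene in the same order, a share that hardly moved.

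In BS649_c0_g1 they parted. The member i17 made up 32.3% of the gene at the young stage and 38.1% at the intermediate stage, but 3.96% at the mature stage. Transcript i19 averaged 26.8 ± 7.95, 61.8 ± 4.69 and 82.0 ± 3.60 over the stages from young to mature, and i2 was likewise highest in mature leaves with 45.0 ± 14.9. The gene total was 69.0 at the young, 155 at the intermediate and 141 at the mature stage, so the total in mature leaves stayed near its intermediate level while the member's share shrank.

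BS1650_c1_g1 was the gene whose total was not highest in intermediate leaves, with 41.9 at the young, 32.8 at the intermediate and 78.0 at the mature stage. Its member i3 averaged 9.01 ± 0.687, 16.4 ± 1.23 and 8.24 ± 4.98 in this order of stages. Transcript i10 of that gene did the reverse, with 10.8 ± 1.76, 0.663 ± 1.15 and 39.8 ± 24.3, and was among the 10 unigenes lowest in intermediate leaves. In BS630_c0_g1 the members i5 and i2 made up 51.7% and 33.4% of the gene in intermediate leaves, and the remaining transcript, i9, varied widely between libraries of a stage (9.98 ± 11.9 at the young, 7.23 ± 6.67 at the intermediate and 25.3 ± 12.2 at the mature stage).

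**Figure D5:**
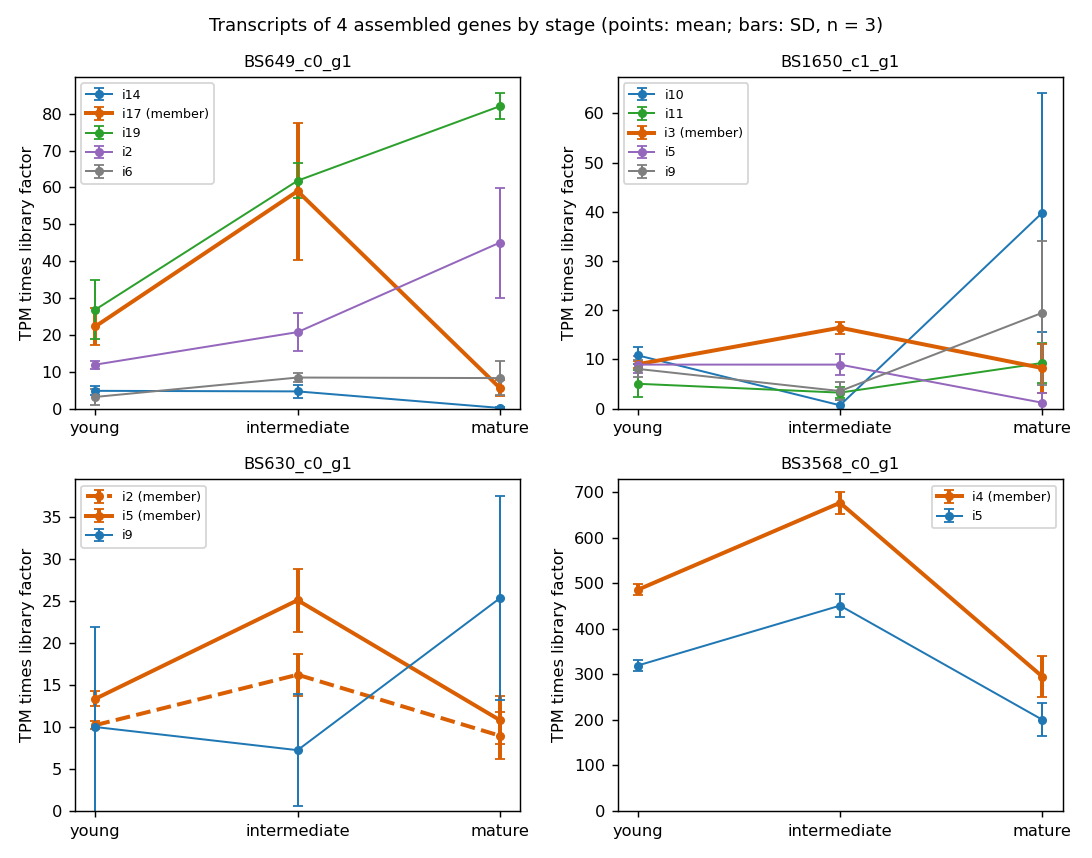
Mean TPM times library factor (y axes, from 0) of all transcripts of 4 assembled genes at the 3 stages (x axes). Bars show the SD (n = 3) and are cut off wherever they would pass below 0, as for BS630_c0_g1 i9 in young leaves. Members are the thick orange lines, which peak in intermediate leaves in every panel; the other transcript of BS3568_c0_g1 runs parallel to the member, whereas i19 and i2 of BS649_c0_g1 and i10 of BS1650_c1_g1 are highest in mature leaves.

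Membership depended on the scale of the values. Applied to TPM without scaling between libraries, the rule chose 31 unigenes, 14 of them members, and 10 of the 14 lost members failed the limit over young leaves. With upper-quartile scaling it chose 29, of which 22 were members. With all 9 libraries, 14 members met the rule on all 3 scales. Of these, 10 also met it in TPMTMM whichever library was left out, ERF023, BS649_c0_g1_i17, BS2829_c1_g1_i1 and both transcripts of BS630_c0_g1 among them. Leaving out a library was not combined with the other scales.

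None of the 42 genes in 9 lists for this leaf (C4 enzymes, metabolite carriers, photosystem and chlorophyll, other plastid proteins, mitochondrial proteins, reference genes, and markers of dividing, epidermal and photosynthetic cells) was a member. Intermediate leaves had the highest mean for 5 of them, none with all libraries apart: PDH-E1 ALPHA, a subunit of plastid pyruvate dehydrogenase, PHB2, a mitochondrial prohibitin, CER1 and KCS2 of cuticular wax synthesis, and RPT6A of the proteasome. PDH-E1 ALPHA came nearest, with 142 ± 13.5 TPMTMM at the young stage, 163 ± 14.1 at the intermediate stage and 98.3 ± 8.94 at the mature stage (SD, n = 3 each). The C4 enzymes followed another course: PEPC1, which makes the first fixation step of the cycle, averaged 1349 ± 111 TPMTMM at the young stage, 2821 ± 986 at the intermediate stage and 9699 ± 521 at the mature stage (SD, n = 3 each). Epidermal and cuticle markers summed to 332 to 423 TPMTMM in the young libraries, 320 to 382 in the intermediate ones and 175 to 233 in the mature ones. In mature against young leaves 3 of 5 were called lower and 1 higher, beside 23.9% and 24.2% of all unigenes. The part of these markers in the members' levels was not tested.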

How the data were processed

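The authors trimmed reads with Trimmomatic, assembled 9 stranded paired-end libraries with Trinity, quantified transcripts with RSEM and removed redundant ones by low TPM and CD-HIT-EST (versions not given in the sources used here). They deposited TPM of 36907 unigenes and TPMTMM, a TPM scaled by the trimmed mean of M values, of 11709. For all but 1 unigene TPMTMM equals the rounded TPM plus 1 times 1 factor per library (tolerance 0.001). Each library's TPM add up to 1000000 (largest distance 1.35). Since these are not counts, the depth of a value cannot be known, and the count test of the study's methods was not used.

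Limma-trend (limma 3.58.1, R 4.3.3) was fitted on log2(TPMTMM + 1) over 9 libraries with stage as the only term. The 1 added pulls fold changes of low unigenes toward 0. The script was tested on simulated data. Members were selected in Python 3.11.15 with numpy 2.4.6 and pandas 2.3.3, and plots were drawn with matplotlib 3.10.9. The members, lists and tests were chosen with earlier results of these data known. One unigene was left out by the rule and is not reported here. Named are members that the paper's text or a shortened copy of its first dataset names, the 3 largest ratios over the higher other stage, the 3 highest means, the 2 unigenes on each side of the fold limit, the 2 largest rises and falls between young and mature leaves past the threshold, and genes with several members. The lists and markers hold 42 symbols.

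To see whether replicate numbers form pairs, deviations from the stage mean were correlated across unigenes. Intermediate and young libraries of the same number correlated at 0.467, 0.445 and 0.696, all over 0.1, so the replicate block is given beside that comparison. Young 1, however, correlated at 0.508 with intermediate 2, and young 2 at 0.547 with intermediate 1, so these values set number 3 apart from 1 and 2 and do not separate 1 from 2. Pairs with mature leaves were negative for number 2 (-0.427 with young, -0.476 with intermediate). Alternatives were other scalings, pseudocounts, filters, limits, blocks and omitted libraries.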

Additional observations from a re-analysis of the deposited data

How the results depend on the processing

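The number of unigenes chosen was 48 at a fold limit of 1.2, 11 at 1.5, 2 at 2, 57 with a minimum mean of 1, 11 with a minimum of 50 and 56 on stage means alone, and 25 to 76 with 1 library left out. In TPM without scaling, where the median unigene shifted by -0.57 between mature and young leaves, by -0.43 between mature and intermediate and by -0.12 between intermediate and young, 0 members rose and 24 fell in mature against young leaves, and 4 were called higher in intermediate than in young leaves. Over all unigenes it called 169 higher and 515 lower in intermediate than in young leaves, 772 higher and 5647 lower in mature than in intermediate leaves, and 1297 higher and 6663 lower in mature than in young leaves. On that scale BS2377_c1_g1_i3 (-0.052) and BS18424_c0_g1_i2 (-0.13) changed sign in mature against young leaves.

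Between intermediate and young leaves, the replicate block in a fit of the 2 stages called 27 members and 1510 unigenes higher and 1099 lower, and the block over 9 libraries 7 members and 235 unigenes higher. The fit of the 2 stages without the block called 15 members and 373 unigenes higher. Only unigenes with a mean of at least 10 left 141 called lower. In mature against young leaves the pairing is not supported by the correlations. There the block in 2 stages called 1 member higher and 9 lower, beside 21.4% and 19.9% of all unigenes. Over 9 libraries it called 1 and 10, beside 26.2% and 25.6%. A pseudocount of 0.1 gave 2 members higher, beside 24.1% of all unigenes.

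With 1 library left out, members called higher in intermediate than in young leaves numbered 0 to 17, all unigenes 9 to 620 higher and 53 to 514 lower. In mature against intermediate leaves 16 to 26 members were called lower, beside 1286 to 1937 of all unigenes. Over all unigenes, 1237 to 2041 were called higher. In mature against young leaves 0 to 2 members were called higher, beside 2369 to 2968 of all unigenes. Called lower there were 6 to 10 members, beside 2317 to 2915 of all. BS3852_c0_g1_i2 then ran from -0.31 to 0.17 and BS630_c0_g1_i2 from -0.20 to 0.14. Of the results set against an alternative, 172 of the counts and shares stayed within 1.5 times or kept their value and 52 moved, while 167 fold changes kept direction and side of the threshold, 7 changed sign, 5 lost a call and 8 gained one. Why the values moved was not tested. Depth behind single values is unknown, so low unigenes could not be given counting intervals.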

Other observations

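The TPM table holds 25198 unigenes that the normalized table leaves out. Scaled as the authors scaled the others, 4838 of them had a mean of at least 10, and 35 met the rule of the set, 7 of these with a mean of at least 100. They were looked at after the set had been described, were not tested and carry no name here. The most abundant, BS33663_c0_g1_i8, had 665, 686 and 544 in the young libraries, 1023, 1008 and 864 in the intermediate ones and 303, 363 and 307 in the mature ones (rounded TPM plus 1, times the library factor). That is the shape of ERF023 and BS3568_c0_g1_i4, with young leaves between intermediate and mature leaves and no overlap of stages. BS9826_c0_g3_i1 had 289, 313 and 192 in the young libraries, 442, 453 and 333 in the intermediate ones and 66.6, 56.6 and 57.4 in the mature ones, and there young library 3 and intermediate library 3 were the low ones of their stages. BS4777_c0_g1_i1 was instead highest in intermediate library 3, with 173, 173 and 202 in the young libraries, 279.9, 282 and 402 in the intermediate ones and 93.8, 229 and 241 in the mature ones. Of the 35, 2 came from the same assembled gene as a member, BS3568_c0_g1_i5 among them.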
